A study of Mus musculus with 10 samples.

Results

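The genes described here are 38 genes of the unfolded protein response, taken by symbol from a table of 50763 genes measured in the lens epithelium of mice that overexpress TGF-β1. They comprise 11 chaperones and co-chaperones of the endoplasmic reticulum (ER), 6 enzymes of oxidative folding, 7 genes of ER-associated degradation, the 3 stress sensors with Xbp1, 7 genes of the PERK/ATF4 output and 3 other ER stress genes. Of these 38 genes, 12 had been shown by the study as ER stress genes on the same samples (Hspa5, Hsp90b1, Calr, Canx, the disulfide isomerases Pdia3, Pdia4 and Pdia6, the oxidase Ero1a, Xbp1, Wfs1, Ptpn1 and Ptpn2), so their direction is not independent evidence. The other 26 are counted separately where it matters.

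When unfolded protein builds up in the ER, 3 membrane sensors respond. IRE1 (gene Ern1) splices the Xbp1 messenger and ATF6 is cut in the Golgi, and both routes give transcription factors that raise ER chaperones, folding enzymes and degradation genes. PERK (gene Eif2ak3) phosphorylates eIF2α, which slows translation and favours synthesis of ATF4, the activator of Ddit3, Trib3, Chac1, Asns and other genes of amino acid supply and stress signaling. Cells that secrete large amounts of matrix rely on the chaperone routes, and the plaque of an anterior subcapsular cataract is rich in secreted matrix.

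RNA-seq was carried out on lens epithelia of mice at 3 weeks of age, with 3 libraries for wild type (WT), 3 for OVE853 and 4 for OVE918. Both transgenic lines are on the FVB/N background and carry a human TGF-β1 transgene, secreted in active form, under the lens-specific αA-crystallin promoter, and no agent was given to any group. A WT or OVE853 library was a pool from up to 9 mice and an OVE918 library a pool from up to 7, so a replicate is a pool. Whole epithelial explants were sequenced, not isolated plaques, and in such bulk RNA fewer cells of a type and less RNA per cell cannot be told apart.

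Total counts on genes were 24073311 to 31908525 per library. Levels are given as CPM (a library's read pairs scaled to a common total) with TMM factors, or as FPKM where genes are compared with each other. Tests were edgeR quasi-likelihood fits over the 11094 genes that reached 2 FPKM in 5 or more of 10 libraries, and a gene is called higher or lower at a Benjamini-Hochberg FDR of at most 0.05. The Tgfb1 row, which names the mouse gene, held 50.6 to 61.7 CPM in WT, 339 to 361 CPM in OVE853 and 715 to 881 CPM in OVE918. Per the study, that row takes up reads of the human transgene as well as of the mouse gene, so it does not measure mouse Tgfb1 alone.

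The lens epithelial markers Pax6 and Foxe3 were present in every library, at 356 to 473 CPM and 424 to 836 CPM. Of the 10 lens epithelial markers, all tested, Cdh1, Gja1 and Sox2 were lower in OVE853, these and Slc38a3 were lower in OVE918, and 0 were higher. The gap junction gene Gja1 was at 512 to 572 CPM in WT, 98.0 to 127 CPM in OVE853 and 55.6 to 79.9 CPM in OVE918. WT replicate 3 stood apart in markers of neighbouring tissue. Its summed level was 846 CPM over 10 markers of retinal neurons, against 88.3 and 106 CPM in the other WT libraries. Over 8 markers of cornea it was 1637 CPM, against 248 and 956 CPM in WT replicates 1 and 2, and almost all of this was Aldh3a1 (236, 937 and 1611 CPM), with Kera at 0 in every library. OVE918 replicate 4 had the lowest TMM factor, 0.88, and was the extreme library of its group for several of the genes below. Counts are therefore also given without each of these libraries.

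The promoters of these genes are shown first, because the chaperone and PERK/ATF4 routes are known to act through different DNA elements. RefSeq windows of 250 bases before to 50 bases after the transcription start (GRCm38.p6) were given for 33 of the 38 genes, and each was placed on GRCm39 by an exact, single match. Windows for Hyou1, Manf, Derl1, Atf6 and Ptpn2 were not used here. The ER stress response element (ERSE), the site of ATF6 with NF-Y, was searched on both strands as CCAAT, then 9 bases of any kind, then CCACG. It was present in 10 of the 33 genes (30.3%), in 7 of the 13 chaperones with a window, counting Pdia3, Pdia4, Pdia6 and P4hb among them (53.8%), and in 0 of the 7 PERK/ATF4 genes, against 37 of 27025 genes (0.137%). The members with the element are shown as 29 bases each, 5′ to 3′ in the direction of the gene, with the CCAAT and CCACG letters, or their reverse complements ATTGG and CGTGG, in capitals.
Hspa5, chr2:34662032-34662060, plus strand: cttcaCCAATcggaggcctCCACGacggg
Hsp90b1, first of 2 elements, chr10:86541497-86541525, minus strand: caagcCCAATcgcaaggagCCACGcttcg
Hsp90b1, nearer the start, chr10:86541392-86541420, minus strand: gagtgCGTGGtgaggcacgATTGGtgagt
Calr, chr8:85573699-85573727, minus strand: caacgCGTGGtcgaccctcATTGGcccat
Canx, chr11:50216622-50216650, minus strand: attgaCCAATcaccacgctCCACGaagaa
Dnajc3, chr14:119175234-119175262, plus strand: cacaaCCAATcagcgccaaCCACGacccg
Creld2, chr15:88703718-88703746, plus strand: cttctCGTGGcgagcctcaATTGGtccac
Pdia6, chr12:17316487-17316515, plus strand: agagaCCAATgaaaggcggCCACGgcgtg
Ero1b, chr13:12580558-12580586, plus strand: ggcctCGTGGtcccgcctcATTGGccgcc
Syvn1, chr19:6096557-6096585, plus strand: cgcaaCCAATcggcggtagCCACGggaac
Derl3, chr10:75729071-75729099, plus strand: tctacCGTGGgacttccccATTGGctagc

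The element of Hspa5 began 65 bases before the start and that of Pdia6 98 bases before it. The related ERSE-II, searched as ATTGG, 1 base, then CCACG, was found in 2 members (6.06% of 33), Herpud1 and, after the start, Dnajb11, against 12 genes in all (0.0444%). The XBP1-type element UPRE, TGACGTGG, was in 0 of 33 members and in 0.714% of all genes. The ATF4 element, searched as TGATG, 1 base, then AA, was in 4 members (12.1%), namely Asns, Chac1, Herpud1 and, after the start, Trib3, and in 4.51% of all genes. It was in 3 of the 7 PERK/ATF4 genes (42.9%) and in 0 of the 13 chaperones. The elements upstream of the start in the PERK/ATF4 genes, and both elements of Herpud1, the only member with a site of each kind in these windows, are given in the same way.
Asns, ATF4 element, chr6:7693215-7693242, minus strand: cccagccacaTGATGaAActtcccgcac
Chac1, ATF4 element, chr2:119181520-119181547, plus strand: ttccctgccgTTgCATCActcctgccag
Herpud1, ATF4 element, chr8:95112935-95112962, plus strand: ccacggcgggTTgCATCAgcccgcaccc
Herpud1, ERSE-II, chr8:95112996-95113024, plus strand: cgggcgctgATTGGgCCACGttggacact

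A match of letters describes the window only. It does not show that a factor bound there, and no match says only that these letters were not in the window. The chaperone and PERK/ATF4 lists were drawn up by the known route of control. Their shares with an element are therefore not independent of that choice.

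Of the 38 genes, 33 passed the expression filter and entered the test. Derl3, Trib3, Asns, Chac1 and Sesn2 did not, and are described below from a fit with another filter. In OVE853, 14 of the 33 genes were higher than in WT and 2, Herpud1 and Ddit3, were lower, where 8.1% of all tested genes were higher and 7.68% lower. In OVE918, 19 of the 33 were higher and 0 were lower, where 8.0% of all tested genes were higher and 11.0% lower. Their median on the log2 scale was 0.38 (OVE853) and 0.47 (OVE918), against -0.01 and 0.01 over all tested genes. Both comparisons use the same WT libraries. Among the 21 tested genes that the study had not shown, 4 were higher and 2 lower in OVE853, and 7 were higher and 0 lower in OVE918.

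Most rises were under 2-fold. By the study's rule for a differentially expressed gene, which also asks for a log2 change of 1 or more in size, only Ero1a qualified in OVE853, where 2.51% of tested genes were higher by that rule. In OVE918 the rule was met by Hspa5, Hsp90b1, Calr, Manf, Pdia6 and Ero1a, where the share of all tested genes was 2.58%. The count of calls for OVE853 changed when single libraries were left out. It was 12 without WT replicate 3 (11 higher and 1 lower), 10 without WT replicate 2 and 8 without any of the 3 OVE853 libraries in turn. The count for OVE918 was 17 without WT replicate 3 and 18 without OVE918 replicate 4. The share of all genes called in these fits is not given.

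**Figure D1:**
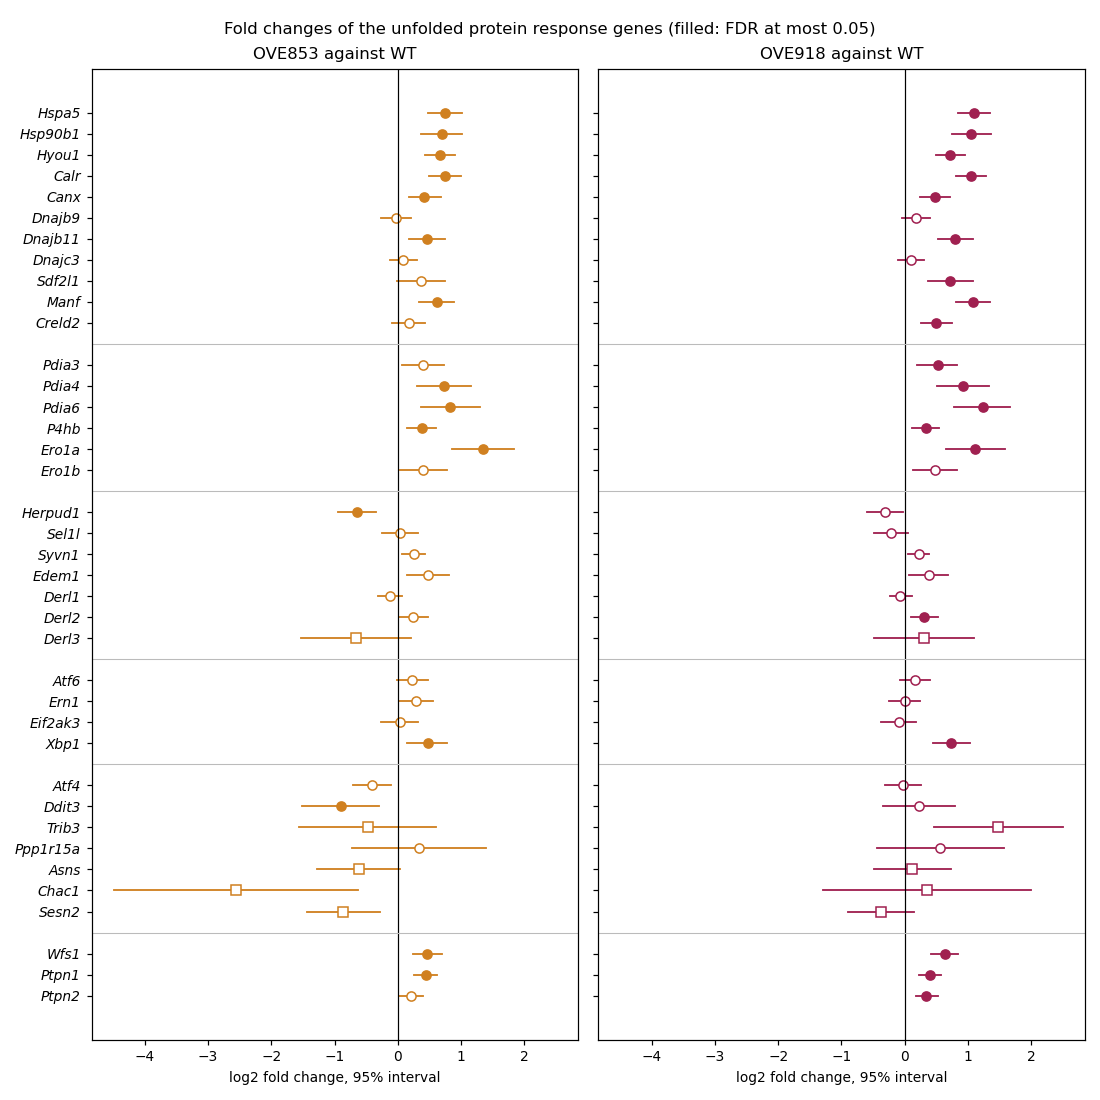
Log2 fold change (horizontal axis) of each of the 38 genes in OVE853 (left) and OVE918 (right) against WT, with its 95% interval, grouped from top to bottom as chaperones, oxidative folding, ER-associated degradation, sensors with Xbp1, PERK/ATF4 output and other ER stress genes. Filled symbols have an FDR of at most 0.05, and squares are the 5 genes tested only under filterByExpr. Filled symbols lie to the right of 0 in both panels except Herpud1 and Ddit3 in OVE853, and the widest intervals belong to Chac1, Trib3 and Ppp1r15a.

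The chaperones that bind unfolded chains were among the most abundant of these genes and rose in both lines. In WT, Hsp90b1 stood at 179 ± 25.3 FPKM (SD, n = 3), Calr at 166 ± 16.9, Canx at 101 ± 10.9 and Hspa5 at 83.1 ± 9.21, whereas Dnajb9 stood at 5.94 ± 0.883. Hspa5 encodes BiP, the Hsp70 of the ER that also holds the stress sensors inactive, and lies at chr2:34661982-34668880 (GRCm39, GENCODE vM39). Its level was 461, 402 and 371 CPM in WT, 721, 697 and 647 CPM in OVE853, and 830, 1005, 803 and 878 CPM in OVE918. No library of either line overlapped WT, and no OVE918 library overlapped OVE853. The log2 fold change was 0.74 ± 0.12 (SE, FDR = 0.00282) in OVE853 and 1.10 ± 0.12 (FDR = 9.9e-05) in OVE918, that is 1.67-fold and 2.14-fold.

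Hsp90b1 encodes GRP94, the Hsp90 of the ER, at chr10:86526073-86541446. It was at 580, 498 and 437 CPM in WT, 806, 915 and 729 CPM in OVE853, and 931, 1061, 986 and 1212 CPM in OVE918, and the 3 groups did not overlap. The log2 fold changes were 0.69 ± 0.14 (FDR = 0.0103) and 1.05 ± 0.14 (FDR = 0.000398). Calr encodes calreticulin, the soluble lectin chaperone, at chr8:85567946-85573667. It was at 476, 420 and 391 CPM in WT, 696, 791 and 666 CPM in OVE853, and 859, 957, 840 and 903 CPM in OVE918, again with no overlap between groups. Its log2 fold changes were 0.74 ± 0.11 (FDR = 0.00192) and 1.05 ± 0.11 (FDR = 8.44e-05). Its membrane-bound relative calnexin (Canx) rose less, by 0.42 ± 0.11 (FDR = 0.0314) and 0.47 ± 0.11 (FDR = 0.011), from 385 ± 41.7 CPM in WT to 517 ± 38.8 CPM in OVE853 and 536 ± 41.5 CPM in OVE918 (SD, n = 3, 3 and 4), and its call in OVE853 was lost in 8 of 21 alternative fits.

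Manf encodes a small secreted and ER-resident protein that binds BiP and is released on stress, and lies at chr9:106715511-106769727. Its level was 53.2, 61.7 and 62.5 CPM in WT, 89.8, 96.5 and 85.5 CPM in OVE853, and 128, 124, 102 and 145 CPM in OVE918. The groups did not overlap, and the log2 fold changes were 0.62 ± 0.12 (FDR = 0.00896) and 1.07 ± 0.12 (FDR = 0.000137). Hyou1, a large Hsp70-like exchange factor for BiP, rose by 0.67 ± 0.11 (FDR = 0.00289) and 0.72 ± 0.10 (FDR = 0.000773). Its OVE853 libraries lay within 187 to 193 CPM and its OVE918 libraries within 179 to 230 CPM, all above the WT range of 108 to 127 CPM.

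The J-domain co-chaperones, which bring substrates to BiP, differed among themselves. Dnajb11 (ERdj3), which is secreted with its clients, was 67.3 to 97.7 CPM in WT, 106 to 118 CPM in OVE853 and 131 to 159 CPM in OVE918, with log2 fold changes of 0.46 ± 0.13 (FDR = 0.0388) and 0.80 ± 0.12 (FDR = 0.00121), of which the former was lost in 10 of 21 alternative fits. Dnajb9 (ERdj4), a classical XBP1 target that acts on IRE1, was at 21.9, 22.5 and 28.4 CPM in WT, 23.0, 24.1 and 24.5 CPM in OVE853, and 28.1, 27.5, 26.9 and 27.6 CPM in OVE918. Its groups overlapped WT, and the log2 fold changes of -0.03 (95% interval -0.26 to 0.21) and 0.18 (-0.04 to 0.40) did not pass (FDR = 0.87 and 0.242). Dnajc3 (p58IPK), which also restrains PERK, had log2 fold changes of 0.08 (-0.13 to 0.30) and 0.10 (-0.10 to 0.30), with 95.7 to 106 CPM in WT, 105 to 110 CPM in OVE853 and 94.0 to 119 CPM in OVE918. Dnajc3 carries the ERSE printed above, as does Hspa5.

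Sdf2l1, a partner of the ERdj3 complex, was at 8.32, 8.73 and 8.24 CPM in WT, 12.6, 11.0 and 9.09 CPM in OVE853, and 13.6, 13.6, 11.1 and 17.2 CPM in OVE918. All transgenic libraries were above WT, and the log2 fold change passed in OVE918 (0.71 ± 0.16, FDR = 0.0103) and not in OVE853 (0.37 ± 0.17, FDR = 0.152). Creld2, a secreted ER stress protein with disulfide isomerase activity, was 0.17 ± 0.12 (FDR = 0.326) in OVE853 and 0.50 ± 0.11 (FDR = 0.00961) in OVE918.

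Beside these values, markers of other cell types also moved. Of 8 fibroblast markers 4 were tested, and their summed level over all 8 was 278 to 432 CPM in WT, 655 to 872 CPM in OVE853 and 457 to 558 CPM in OVE918. Col1a1 and Col6a3 were higher in both lines, whereas the other tested markers, Col1a2 and Pdgfrb, did not pass, with Col1a2 at 51.7 to 174, 137 to 173 and 43.1 to 111 CPM. Of 12 macrophage markers 4 were tested, with sums over all 12 of 23.1 to 56.3, 50.2 to 82.0 and 35.8 to 95.9 CPM. By edgeR 0 of these 4 passed in OVE853 and 1, C1qa, was higher in OVE918. All 4 log2 fold changes were positive in both lines (medians 1.24 and 1.18), each with an unadjusted p under 0.05. Of 10 plasma cell markers, chosen because plasma cells are rich in ER chaperones, 9 were under 1 CPM in every library and Ighm and Igkc were at 0 in all. The list's sum, 57.0 to 93.3 CPM in WT, 116 to 147 CPM in OVE853 and 144 to 205 CPM in OVE918, was almost all Sdc1. The 8 markers of non-pigmented ciliary epithelium, 6 of them tested, went the other way, at 255 to 429 CPM in WT, 93.1 to 110 CPM in OVE853 and 39.9 to 74.5 CPM in OVE918. The sum of the cornea list was at most 134 CPM in OVE853 and 108 CPM in OVE918, below every WT library, with Aldh3a1 lower and Krt4 higher in both lines. The 12 markers of lens fiber cells, 11 of them tested, summed to 85412 to 102833 CPM in WT, 52238 to 75955 CPM in OVE853 and 75777 to 147206 CPM in OVE918, so that OVE853 lay below WT and OVE918 spread across it. By edgeR 0 of these 11 passed in either line. An unadjusted p under 0.05 was held by 2 and 3 of them, against 3785 and 3680 of all 11094 tested genes. The part of the lens epithelial, lens fiber, cornea, fibroblast, macrophage and ciliary lists in the chaperone levels was not tested.

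Of the 6 enzymes that form and rearrange disulfide bonds, 4 rose in OVE853 and 5 in OVE918. Pdia6, a disulfide isomerase that also binds IRE1, lies at chr12:17316533-17335913 and was at 340, 280 and 175 CPM in WT, 475, 528 and 414 CPM in OVE853, and 596, 589, 570 and 730 CPM in OVE918. The groups did not overlap, although WT itself spread widely, with replicate 3 lowest. The log2 fold changes were 0.83 ± 0.21 (FDR = 0.024) and 1.23 ± 0.20 (FDR = 0.00164). Pdia4 (ERp72) behaved alike, with 144, 123 and 76.5 CPM in WT, 174 to 210 CPM in OVE853 and 189 to 240 CPM in OVE918, and log2 fold changes of 0.73 ± 0.20 (FDR = 0.0309) and 0.92 ± 0.19 (FDR = 0.00568). The calls of Pdia6 and Pdia4 in OVE853 were lost in 5 and 6 of 21 alternative fits.

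Pdia3 (ERp57), the partner of calnexin and calreticulin, was 0.40 ± 0.15 (FDR = 0.0934) in OVE853 and 0.52 ± 0.14 (FDR = 0.0284) in OVE918, a call lost in 8 of 21 alternative fits. P4hb, the first disulfide isomerase and a subunit of collagen prolyl hydroxylase, rose by 0.38 ± 0.10 (FDR = 0.0309) and 0.33 ± 0.09 (FDR = 0.0323). Its range was 190 to 208 CPM in WT, 239 to 271 CPM in OVE853 and 223 to 274 CPM in OVE918. The rise of P4hb was lost in 6 of 21 alternative fits in OVE853 and in 10 in OVE918, where its log2 fold change ranged from 0.24 to 0.38.

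Ero1a, the oxidase that recharges the disulfide isomerases and is also known as a hypoxia-responsive gene, had the largest log2 fold change of the tested members in OVE853. It lies at chr14:45520541-45556228 and was at 38.7, 33.3 and 21.9 CPM in WT, 75.2, 91.6 and 70.6 CPM in OVE853, and 51.5, 83.2, 73.0 and 62.9 CPM in OVE918. Both lines were above WT and overlapped each other. The log2 fold changes were 1.34 ± 0.22 (FDR = 0.00307) and 1.11 ± 0.21 (FDR = 0.00393), and OVE918 against OVE853 gave -0.22 (95% interval -0.67 to 0.22). Its paralog Ero1b, at 2.19 ± 0.261 FPKM in WT against 7.07 ± 1.94 FPKM for Ero1a, had 0.40 ± 0.17 (FDR = 0.122) and 0.48 ± 0.16 (FDR = 0.0562).

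**Figure D2:**
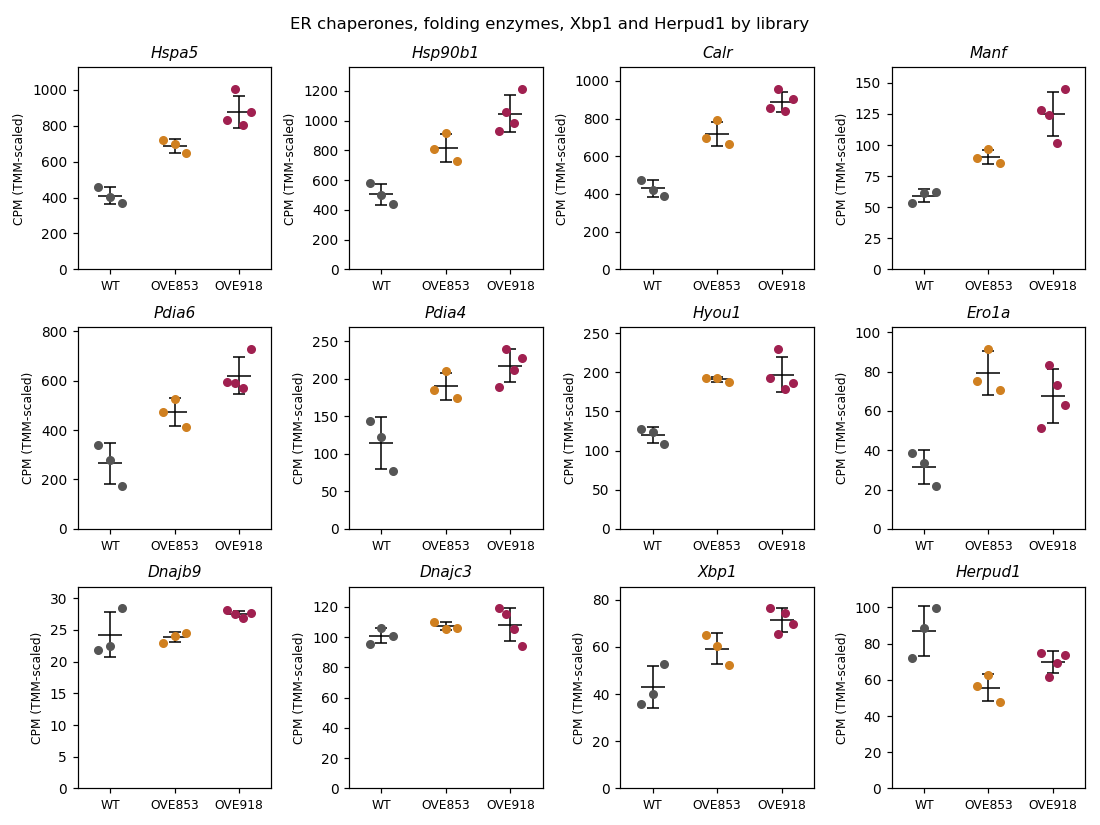
CPM after TMM scaling (vertical axes, from 0) of 12 genes in each library of WT, OVE853 and OVE918. Points are libraries and bars are mean ± SD (n = 3, 3 and 4). For Hspa5, Hsp90b1, Calr, Manf and Pdia6 the groups rise in the order WT, OVE853, OVE918 without overlap, Dnajb9 and Dnajc3 stay within or near the WT range, and Herpud1 is lower in OVE853 (47.6 to 62.7 CPM) than in WT (72.2 to 99.5 CPM). Of all tested genes, 23.4% lie wholly above WT in OVE853 and 12.3% in OVE918, and the share with all 3 groups in this order was not counted.

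Across the 11 chaperones and co-chaperones, 7 were higher in OVE853 and 9 in OVE918, and across the 6 enzymes of oxidative folding 4 and 5 were higher. None of these 17 genes was lower in either line. In OVE853, 23 of the 33 tested members had every transgenic library above every WT library, which 23.4% of all tested genes had, and 3 had every library below, against 22.0%. In OVE918 these counts were 22 and 1, against 12.3% and 15.0%. The share of all tested genes in which the 3 groups did not overlap each other was not counted.

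Genes of ER-associated degradation, which carry misfolded proteins back to the proteasome, gave 1 call in each line among the 6 tested, lower for Herpud1 in OVE853 and higher for Derl2 in OVE918. Syvn1, Edem1 and Derl2 had every transgenic library above every WT library in both lines. Herpud1, a scaffold of the degradation complex that responds to both ATF6 and ATF4 in other cells, lies at chr8:95113022-95123141 and was at 72.2, 88.8 and 99.5 CPM in WT, 56.6, 62.7 and 47.6 CPM in OVE853, and 75.0, 61.5, 69.3 and 73.6 CPM in OVE918. All OVE853 libraries were below WT, whereas OVE918 overlapped WT. It fell by 0.64 on the log2 scale in OVE853 (SE 0.14, FDR = 0.0124), and the log2 fold change in OVE918 was -0.31 ± 0.13 (FDR = 0.117). Derl2, a channel protein of the complex, rose in OVE918 by 0.31 ± 0.10 (FDR = 0.0457), a call that was lost in 14 of 21 alternative fits.

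The remaining degradation genes did not pass in either line in the main fit. In 21 alternative fits Syvn1 passed in 5 in each line and Edem1 in 6 in OVE853. The ubiquitin ligase Syvn1 (HRD1) had 0.25 ± 0.08 (FDR = 0.0569) and 0.22 ± 0.08 (FDR = 0.0676), and the mannosidase-like Edem1 had 0.47 ± 0.15 (FDR = 0.0521) and 0.38 ± 0.14 (FDR = 0.082), close to the threshold, with all transgenic libraries above WT for both genes. Sel1l, the adaptor of HRD1, was at 103 to 105 CPM in WT and 101 to 110 CPM in OVE853. In OVE918 it was at 68.0 CPM in replicate 4 and 93.4 to 101 CPM in the other libraries, and its log2 fold change was -0.22 ± 0.12 (FDR = 0.236). Derl1 lay between 64.5 and 81.9 CPM throughout. Derl3, known from secretory cells, was nearly absent, with 8 to 21 counts per library (0.296 to 0.782 CPM), although its promoter window holds an ERSE. Another 18 degradation genes outside the members, among them Os9, Edem2, Vcp and Selenos, gave 0 higher and 0 lower by edgeR in either line. An unadjusted p under 0.05 was held by 7 and 2 of them, against 3785 and 3680 of all 11094 tested genes.

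Of the sensors themselves, none passed. Atf6 had log2 fold changes of 0.23 ± 0.11 (FDR = 0.171) and 0.16 ± 0.10 (FDR = 0.311), Ern1 had 0.29 ± 0.12 (FDR = 0.121) and -0.00 ± 0.11 (FDR = 0.988), and Eif2ak3 had 0.03 ± 0.13 (FDR = 0.891) and -0.09 ± 0.13 (FDR = 0.651). These are transcript levels, and the sensors are switched on as proteins. Xbp1, the substrate of IRE1 and itself a target of ATF6, lies at chr11:5470606-5483027 and was at 35.9, 40.1 and 52.8 CPM in WT, 65.0, 60.6 and 52.4 CPM in OVE853, and 76.4, 65.3, 74.5 and 69.7 CPM in OVE918. The lowest OVE853 library lay just below WT replicate 3, and all OVE918 libraries lay above WT. The log2 fold changes were 0.47 ± 0.14 (FDR = 0.0483) and 0.73 ± 0.13 (FDR = 0.00323), of which the former was lost in 10 of 21 alternative fits. The counts are per gene, so spliced and unspliced Xbp1 were not told apart.

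Of 8 other tested genes of the ATF6 family and its processing, 0 were higher and 1 was lower in OVE853, and 0 and 2 in OVE918. The shares over all tested genes were 8.1% higher and 7.68% lower in OVE853, and 8.0% and 11.0% in OVE918. Creb3l1 (OASIS), a membrane-bound factor related to ATF6 that drives collagen genes in bone, was at 33.8 to 37.6 CPM in WT, 13.9 to 16.1 CPM in OVE853 and 13.8 to 17.3 CPM in OVE918. It fell by 1.23 on the log2 scale in OVE853 (SE 0.11, FDR = 8.35e-05) and by 1.25 in OVE918 (SE 0.10, FDR = 1.8e-05).

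Among the 7 PERK/ATF4 genes 3 entered the test, of which 1 was lower in OVE853 and 0 passed in OVE918. Over all tested genes 7.68% were lower in OVE853 and 11.0% in OVE918. Atf4 itself, at 59.1 ± 10.9 FPKM in WT, was at 107, 156 and 137 CPM in WT, 94.2, 106 and 102 CPM in OVE853, and 120, 133, 123 and 148 CPM in OVE918. The OVE853 libraries were below WT and OVE918 overlapped WT, and the log2 fold changes were -0.41 ± 0.14 (FDR = 0.0631) and -0.03 ± 0.13 (FDR = 0.896). In OVE853 Atf4 was called lower in 5 of 21 alternative fits. ATF4 is regulated mainly in translation, which these counts do not measure.

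Ddit3 encodes CHOP, the transcription factor of ER stress-induced cell death, and lies at chr10:127124268-127132163. It was at 16.1, 15.2 and 30.2 CPM in WT, 11.9, 11.0 and 10.0 CPM in OVE853, and 19.7, 19.9, 23.0 and 33.4 CPM in OVE918. The OVE853 libraries were below all others, and the WT and OVE918 libraries overlapped. Ddit3 fell by 0.90 on the log2 scale in OVE853 (SE 0.28, FDR = 0.0493), a call that was lost without WT replicate 3 and in 12 of 21 alternative fits in all. In OVE918 it had 0.22 ± 0.25 (FDR = 0.588). Ppp1r15a (GADD34), which restores translation by dephosphorylating eIF2α, was at 29.1, 19.2 and 33.2 CPM in WT, 14.1, 49.1 and 39.6 CPM in OVE853, and 28.4, 61.2, 26.2 and 44.9 CPM in OVE918. The 3 groups overlapped fully and the log2 fold changes, 0.33 ± 0.47 and 0.56 ± 0.44, were about as large as their errors.

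Immediate early genes, which respond within minutes to handling, also spread widely among libraries of 1 group. Fos was at 382, 31.4 and 315 CPM in WT, 140, 68.8 and 621 CPM in OVE853, and 57.6, 987, 137 and 315 CPM in OVE918. Atf3, an ATF4 target that is also an immediate early gene, was at 67.4, 4.12 and 27.9 CPM in WT, 5.68, 2.71 and 15.7 CPM in OVE853, and 5.31, 166, 7.10 and 65.6 CPM in OVE918. These genes were chosen after their values were seen, and their bearing on the spread of Ppp1r15a was not tested. Of 11 tested immediate early genes, 0 passed in OVE853 by edgeR, and 1, Ier3, was higher in OVE918. In OVE853 1 of the 11 had an unadjusted p under 0.05, against 3785 of all 11094 tested genes.

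Trib3, Asns, Chac1 and Sesn2 did not reach 2 FPKM in 5 libraries. They were fitted with edgeR's filterByExpr in place of the FPKM minimum, over 18058 genes of which 6.54% were higher and 7.02% lower in OVE853 and 6.85% higher and 10.0% lower in OVE918. In that fit 0 of the 7 PERK/ATF4 genes passed in either line, with 4 at an unadjusted p under 0.05 in OVE853 and 1 in OVE918. The share of all genes at such a p in that fit is not given. Trib3, a pseudokinase induced by CHOP, was at 0.671, 2.46 and 2.14 CPM in WT, 1.45, 1.52 and 0.817 CPM in OVE853, and 3.26, 3.72, 4.46 and 7.98 CPM in OVE918. All OVE918 libraries were above WT, and the log2 fold change of 1.48 ± 0.46 had an FDR of 0.0505, whereas it was -0.47 ± 0.49 (FDR = 0.529) in OVE853.

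Chac1, which degrades glutathione, varied widely within WT, at 0.805, 10.7 and 2.10 CPM. It was at 0.604, 0.926 and 0.783 CPM in OVE853 and at 2.44, 4.21, 9.33 and 6.97 CPM in OVE918. The OVE853 libraries were uniformly low and overlapped WT, and the log2 fold changes were -2.56 ± 0.86 (FDR = 0.0754) and 0.35 ± 0.74 (FDR = 0.784). Asns, asparagine synthetase, was at 6.26, 12.5 and 14.5 CPM in WT, 6.56, 7.86 and 7.08 CPM in OVE853, and 10.8, 8.05, 13.9 and 14.7 CPM in OVE918, with log2 fold changes of -0.62 ± 0.30 (FDR = 0.174) and 0.12 ± 0.28 (FDR = 0.807). Sesn2, an inhibitor of mTORC1 signaling under amino acid shortage, was at 4.47 to 8.49 CPM in WT, 2.69 to 4.34 CPM in OVE853 and 4.13 to 5.44 CPM in OVE918, with -0.86 ± 0.26 (FDR = 0.0512) and -0.38 ± 0.24 (FDR = 0.303).

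**Figure D3:**
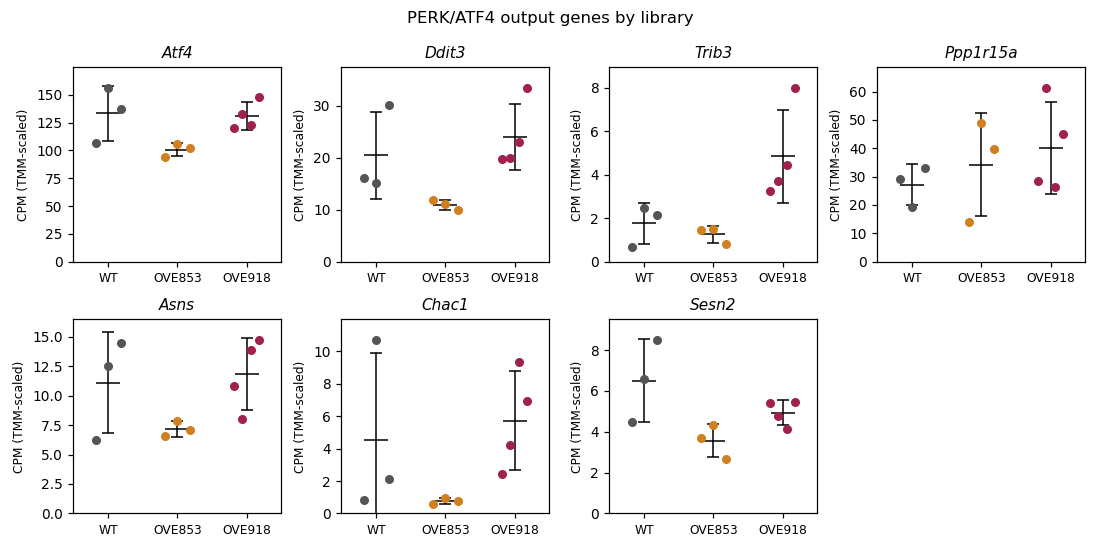
CPM after TMM scaling (vertical axes, from 0) of the 7 PERK/ATF4 genes in each library of WT, OVE853 and OVE918, with mean ± SD as bars (n = 3, 3 and 4, the lower end of the WT bar of Chac1 is cut at 0). OVE853 libraries sit low for Atf4, Ddit3, Asns, Chac1 and Sesn2, OVE918 libraries lie above WT only for Trib3 (3.26 to 7.98 CPM), and Ppp1r15a spreads within every group.

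Set side by side, 10 of the 15 chaperones (the 11 chaperones and co-chaperones with Pdia3, Pdia4, Pdia6 and P4hb) were higher in OVE853 and 13 of 15 in OVE918, with median log2 fold changes of 0.46 and 0.72. Over all tested genes 8.1% and 8.0% were higher. Hspa5, Hsp90b1, Calr, Canx, Pdia3, Pdia4 and Pdia6 had been shown by the study and no PERK/ATF4 gene had. The contrast is therefore not independent of that choice. Of the other chaperones, Dnajb11, Hyou1, Manf and P4hb were higher in OVE853, and these with Creld2 and Sdf2l1 in OVE918. Dnajb9 and Dnajc3 passed in neither line. Of the 3 tested PERK/ATF4 genes, 0 were higher and 1 was lower in OVE853 and 0 passed in OVE918, with medians of -0.41 and 0.22, and over all 7 genes under filterByExpr the medians were -0.62 and 0.25. The chaperone count in OVE853 was 7 without WT replicate 3 and 5 without WT replicate 2 or any of the OVE853 libraries, whereas in OVE918 it was 12 without WT replicate 3 or OVE918 replicate 4. The chaperone median in OVE853 was 0.36 without WT replicate 3, 0.45 without WT replicate 2 and 0.43 to 0.50 without an OVE853 library. With 3 tested genes, the PERK/ATF4 counts rest on few genes, and without WT replicate 3 their median in OVE918 was 0.61.

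The groups of genes were also read library by library. The mean log2 level of the 15 chaperones, relative to the WT mean, was 0.12, 0.02 and -0.14 in WT, 0.51, 0.57 and 0.39 in OVE853, and 0.67, 0.79, 0.62 and 0.82 in OVE918. The groups did not overlap, and the SD within groups was 0.11. For the 7 PERK/ATF4 genes on log2(CPM + 0.5) it was -0.54, 0.28 and 0.26 in WT, -0.73, -0.35 and -0.63 in OVE853, and 0.06, 0.29, 0.39 and 0.73 in OVE918, with an SD within groups of 0.33. WT overlapped both lines, and OVE853 lay below OVE918. In OVE918 replicate 4 the PERK/ATF4 mean (0.73) was close to the chaperone mean (0.82). The mean of the 6 tested genes of ER-associated degradation was between -0.05 and 0.11 in all libraries, as genes of opposite sign were averaged (from -0.64 for Herpud1 to 0.47 for Edem1 in OVE853). No test was made on these means, since the members were chosen with results known.

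**Figure D4:**
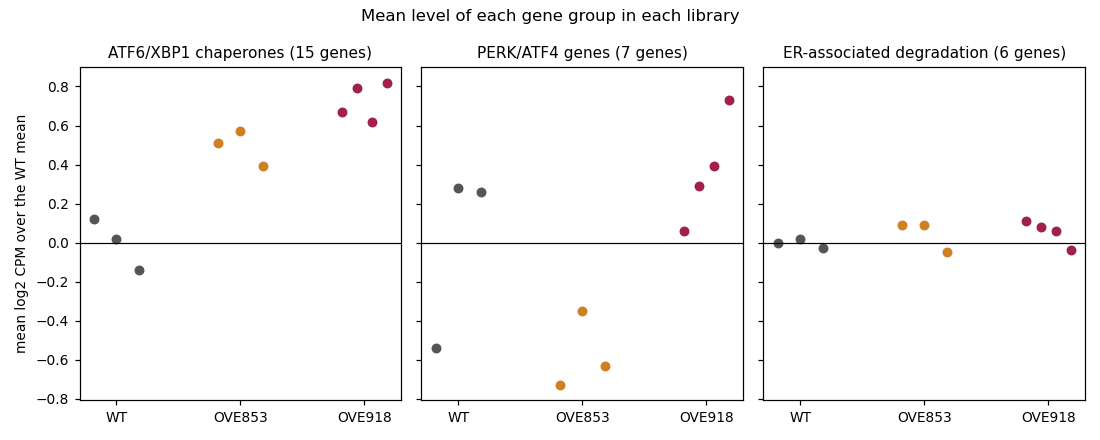
Mean log2 level relative to the WT mean (vertical axis) of the 15 chaperones, the 7 PERK/ATF4 genes (on log2(CPM + 0.5)) and the 6 tested genes of ER-associated degradation, with 1 point per library of WT, OVE853 and OVE918. Chaperones step up from WT (-0.14 to 0.12) to OVE853 (0.39 to 0.57) and OVE918 (0.62 to 0.82), PERK/ATF4 genes are low in OVE853 and spread in WT, and the mean of the degradation genes, which holds genes of opposite sign, lies between -0.05 and 0.11.

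Between the lines, which differ in the level of Tgfb1, no member passed the test by edgeR. Over all tested genes 0.379% were higher and 0.937% lower in OVE918 than in OVE853. An unadjusted edgeR p under 0.05 was held by 10 of the 33 members and by 2537 of all 11094 tested genes. DESeq2 called 4 members higher in OVE918 (Hspa5, Calr, Manf and Ddit3) and limma voom with sample weights called 11. The shares over all tested genes are from edgeR. None is given for DESeq2 or voom, so the members' counts there cannot be set against a share. The log2 difference was positive for 24 of 33 members and for 14 of 15 chaperones, against 5165 of all 11094 tested genes. The chaperone median was 0.31. It was only 0.14 with library totals in place of TMM factors, a scaling that moves the median of all genes to -0.20. Manf had the largest difference among the chaperones, 0.46 (95% interval 0.20 to 0.72, FDR = 0.0779), and Hspa5 had 0.35 (0.10 to 0.60, FDR = 0.12). The difference of Ddit3 was 1.13 (0.55 to 1.71, FDR = 0.0667), and it passed without WT replicate 3 or without OVE918 replicate 2. Under filterByExpr Trib3 had 1.96 (0.91 to 3.00, FDR = 0.0958) and Chac1 2.91 (1.03 to 4.80, FDR = 0.137).

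The other ER stress genes shown by the study moved moderately. Wfs1, an ER membrane protein of calcium homeostasis that is mutated in Wolfram syndrome, was at 44.2, 35.8 and 40.0 CPM in WT, 55.3, 57.6 and 52.7 CPM in OVE853, and 56.3, 67.9, 60.7 and 63.1 CPM in OVE918. Both lines were above WT, and the log2 fold changes were 0.46 ± 0.10 (FDR = 0.013) and 0.63 ± 0.10 (FDR = 0.00104). The ER-anchored phosphatase Ptpn1 (PTP1B) rose by 0.44 ± 0.08 (FDR = 0.00671) and 0.40 ± 0.08 (FDR = 0.00489). The related Ptpn2 had 0.20 ± 0.09 (FDR = 0.126) in OVE853 and rose by 0.34 ± 0.08 (FDR = 0.0127) in OVE918.

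Genes around this response were read from lists of other ER and stress genes, of which up to 4 past the threshold in both lines with the same sign are named. Over all tested genes, 8.1% were higher and 7.68% lower in OVE853, and 8.0% and 11.0% in OVE918. A named gene does not mean that its list exceeded these shares. Of 18 other ER folding factors, 3 were higher in OVE853 and 2 in OVE918, with Ppib, the prolyl isomerase of collagen folding, at 169 to 212 CPM in WT, 248 to 283 CPM in OVE853 and 278 to 369 CPM in OVE918 (log2 fold changes 0.44 ± 0.13, FDR = 0.0476, and 0.64 ± 0.13, FDR = 0.00501). Of 23 genes of the translocon, signal peptidase and oligosaccharyltransferase, 2 were higher in OVE853 and 11 in OVE918, and 0 were lower. Among them Spcs3, a signal peptidase subunit, rose by 0.47 ± 0.11 (FDR = 0.0167) and 0.53 ± 0.10 (FDR = 0.00477), and Stt3b, a catalytic subunit of N-glycosylation, by 0.42 ± 0.11 (FDR = 0.0282) and 0.35 ± 0.10 (FDR = 0.0354). Of 20 genes of ER-Golgi transport, 2 were higher and 1 lower in OVE853 and 4 higher and 1 lower in OVE918. The cargo receptor Tmed10 rose by 0.41 ± 0.10 (FDR = 0.0191) and 0.39 ± 0.09 (FDR = 0.0134), and Mcfd2, a cofactor for secretion of clotting factors, fell by 0.31 (SE 0.09, FDR = 0.0327) and by 0.43 (SE 0.08, FDR = 0.00315).

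Of 25 other tested ATF4 targets and amino acid response genes, 2 were higher and 4 lower in OVE853, and 3 higher and 3 lower in OVE918, with medians of -0.22 and 0.12. The shares over all tested genes were 8.1% higher and 7.68% lower in OVE853, and 8.0% and 11.0% in OVE918. Shmt2, a mitochondrial enzyme of serine use, rose by 0.81 ± 0.14 (FDR = 0.00452) and 0.65 ± 0.14 (FDR = 0.00672), and the lipoprotein receptor Vldlr by 0.66 ± 0.16 (FDR = 0.0223) and 0.70 ± 0.16 (FDR = 0.00956). Phgdh, the first enzyme of serine synthesis, fell by 0.76 (SE 0.13, FDR = 0.00395) and by 0.64 (SE 0.12, FDR = 0.00404), and the tRNA synthetase Aars1 by 0.46 (SE 0.11, FDR = 0.0167) and by 0.32 (SE 0.10, FDR = 0.0478). The cystine transporter Slc7a11, singled out after its values were seen, was under the FPKM minimum in most libraries and was at 85.7, 128 and 161 CPM in WT, 13.7 to 19.0 CPM in OVE853 and 5.54 to 10.4 CPM in OVE918. No library overlapped between the 3 groups, and under filterByExpr it fell by 2.94 (SE 0.27, FDR = 0.00015) and by 3.85 (SE 0.25, FDR = 9.77e-06). Other genes singled out with Slc7a11 went different ways. Nupr1 had 0.39 ± 0.15 (FDR = 0.0908) and rose by 0.88 ± 0.14 (FDR = 0.00137). Slc3a2 had -0.24 ± 0.10 (FDR = 0.124) and fell by 0.54 (SE 0.10, FDR = 0.00271). Psat1 and Slc7a5 passed in neither line. Under filterByExpr Stc2, at 0.21 to 5.97 CPM, had 1.87 ± 0.59 (FDR = 0.0606) and 1.83 ± 0.57 (FDR = 0.0513).

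Stress genes outside the ER were read against the shares over all tested genes given above (8.1% higher and 7.68% lower in OVE853, 8.0% and 11.0% in OVE918). An unadjusted edgeR p under 0.05 was held by 3785 of all 11094 tested genes in OVE853 and by 3680 in OVE918. Of 11 genes of eIF2α kinases, phosphatases and eIF2B, 0 passed in either line by edgeR, with 2 and 1 at an unadjusted p under 0.05. Of 15 cytosolic heat shock genes, 0 passed in OVE853, with 4 at an unadjusted p under 0.05, and in OVE918 Dnajb1 was higher and Dnajb4 lower. Of 10 mitochondrial chaperones and proteases, Clpp was lower in OVE853 and Hspd1 higher in OVE918.

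Genes with and without the ERSE were among those that rose. Of the 10 members with an ERSE, 9 were tested, of which 5 were higher in OVE853 (Hspa5, Hsp90b1, Calr, Canx and Pdia6) and 6 in OVE918 (these and Creld2). Dnajc3, Ero1b and Syvn1 carry it and did not pass in either line in the main fit, while Ero1a, Pdia4, P4hb, Xbp1, Wfs1 and Ptpn1 have none in this window and were higher in both lines. In alternative fits Syvn1 passed in 5 of 21 in each line, and Ero1b in 1 in OVE853 and 5 in OVE918. Outside the members, 27 genes had an ERSE, of which 5 were tested and 2 and 3 were higher. Over all tested genes 8.1% were higher in OVE853 and 8.0% in OVE918.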

How the data were processed

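mRNA libraries were made by the authors from pooled lens epithelia. Per the labels and the submitters' processing notes, reads were trimmed with Cutadapt 5.2, aligned to mm39 (GRCm39) with STAR 2.7.11b and counted per gene with featureCounts 2.0.8 in reverse-stranded mode, with edgeR 4.6.3 used by the authors for their tests. The deposited table holds raw counts without normalization, for 50763 genes in 10 libraries.

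Counts were fitted in R 4.3.3 with edgeR 4.0.16 (TMM factors, robust quasi-likelihood fit, 3 groups, 3 contrasts, Benjamini-Hochberg adjustment over all tested genes of a contrast). The filter of 2 FPKM in 5 of 10 libraries used the merged exons of transcripts tagged Primary in GENCODE vM39, found by symbol for 43252 genes and by a RefSeq synonym for 22, leaving 7489 genes without a length. Members under this filter were taken from a fit with filterByExpr. Alternatives were DESeq2 1.42.0, limma 3.58.1 voom, other scaling and filters, the replicate number as a block, and leaving out each library. The steps were tested on simulated data. Labels do not pair the libraries: over 9 pairs with the same number, the correlation of deviations was -0.303 to 0.0838.

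All 38 members are named, and of other lists up to 4 genes past the threshold in both lines with the same sign, by the largest change. The members and lists were chosen with earlier results of these data known. Depth and the spread between pools limit the precision, and p-values measure the spread between pools.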

Additional observations from a re-analysis of the deposited data

Results flagged for a closer look

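In OVE918 the values of 38 members were searched for a library far from the other 3, and chance alone marks about 1 in 20 groups. Pdia6 was marked because OVE918 replicate 4, at 730 CPM, lay above the next library, at 596 CPM, by 0.84 of the range of the group. Ptpn1 was marked because the same library, at 36.1 CPM, lay below the next, at 40.1 CPM, by 0.87 of the range.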

How the results depend on the processing

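In 21 alternative fits no called result reversed its direction. Counts of calls in OVE853 were the least stable. The count of members past the threshold (16) was 10 when only the groups compared were fitted and 8 to 19 on leaving out a library. The chaperone count (10) was 6 without a filter and 6 with only the groups compared, and 5 to 11 on leaving out a library. The PERK/ATF4 count (1) was 0 with upper-quartile factors, library totals, filterByExpr, no filter or only the groups compared, 2 with voom or DESeq2, and 0 to 2 on leaving out a library, being 0 without WT replicate 3, any OVE853 library or OVE918 replicate 1, 2 or 3, and 2 without WT replicate 1 or OVE918 replicate 4. In OVE918 the members and chaperones kept counts within 1.5 times (16 to 21 and 11 to 13 on leaving out a library). The PERK/ATF4 count there was 1, Trib3, without a filter, and the PERK/ATF4 median was 0.02 to 0.61 on leaving out a library.

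Between the lines, 0 members passed, against 1 with only the groups compared (Ddit3), 11 with voom and 4 with DESeq2, and 0 to 1 on leaving out a library. The share of all genes called between the lines in these other fits is not given. For chaperones the count was 7 with voom and 3 with DESeq2, and for PERK/ATF4 genes 1 with only the groups compared, 2 with voom, 1 with DESeq2 and 0 to 1 on leaving out a library. The chaperone median between the lines was 0.14 with library totals, and the PERK/ATF4 median was 0.74 with filterByExpr and with no filter, which add 4 low genes. The cause of the other differences was not tested.

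With the replicate number as a block, 17 members passed in OVE853, 16 in OVE918 and 0 between the lines, with 10 and 11 chaperones, and 2 PERK/ATF4 genes in OVE853, as Atf4 passed too. The libraries share only a number, so no pairing was used. Low counts limit Derl3 (8 to 21 counts per library) and Chac1.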
